A study of Mus musculus with 9 samples.

Results

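Radial spokes and the central pair are the inner machinery of motile cilia and of the sperm tail. The spokes reach from the outer doublet microtubules towards the central pair of microtubules, and their heads touch the projections that the central pair carries. This contact is known to time the dynein motors, so that the axoneme bends instead of locking. In the testis the sperm tail begins to grow in early round spermatids, after meiosis, yet the messenger RNAs of many tail proteins are made in meiotic spermatocytes.

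The genes described here are 8 components of this machinery, namely the radial spoke genes Rsph1, Rsph4a, Rsph6a and Rsph9 and the central pair genes Spag6, Spag16, Spag17 and Hydin. They were chosen by name, as the array rows that the probe table assigns to exactly 1 of these symbols. All 8 of 8 were found among 19935 genes with a value, each on 1 row, and none of their rows was shared with another symbol. Since each gene had a single row, no average over rows was needed.

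Testis tissue of untreated male Swiss albino mice was taken at 8, 16 and 24 days of age, with 3 biological replicates at each age (9 arrays). The first wave of spermatogenesis passes through its meiotic and then its haploid steps over this time, and the design text compares 16 with 8 days, 24 with 16 days and 24 with 8 days. Whether an array holds the RNA of 1 animal or of several is not stated in the labels. Titles number 2 of the arrays of each age as 1 and 2, and the unnumbered array is called replicate 3. The deposited values were log2 signals relative to the median of each row over the 9 arrays, so that 0 is the middle array of a gene and a difference of 1 is a 2-fold difference. Each of the 8 genes had 1 blank cell, which was taken as 0 and is printed as 0.00. With the blank as 0 the median of each gene was 0, so that the blank stood at its middle array. The values give no level, and the genes can be compared by their changes and not by their amounts. In whole testis, more cells of a type and more RNA per cell cannot be told apart.

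Of the 8 genes, 6 rose between 8 and 16 days, 7 rose between 16 and 24 days and 7 rose over the whole span. None fell in any comparison, while 14.3%, 20.1% and 35.2% of all genes fell in the comparisons of 16 with 8, 24 with 16 and 24 with 8 days. For 24 versus 16 days the split over all genes was 2641 that rose and 4004 that fell, and with each array scaled to its median it was 2861 and 1927. For 24 versus 8 days it was 3825 and 7015, and with that scaling 4389 and 5236. In both comparisons 7 of the 8 genes rose and none fell under either scaling. On the log2 scale, Spag17, Rsph1, Spag16 and Hydin gained most of their rise by 16 days. Rsph9 and Rsph6a rose over both intervals, Spag6 rose between 16 and 24 days, and Rsph4a did not pass the test in any comparison. A gene was called where limma's adjusted p was at most 0.05, with Benjamini-Hochberg adjustment over all 19935 genes. Over all genes the share that rose was 10.4% for 16 versus 8 days, 13.2% for 24 versus 16 days and 19.2% for 24 versus 8 days. The arrays of the older age lay wholly above those of the younger for 6, 7 and 7 of the 8 genes, and for 14.7%, 16.5% and 20.5% of all genes. The median change of the 8 genes was 1.66, 1.34 and 3.18 on the log2 scale in these comparisons, beside -0.02, -0.16 and -0.18 over all genes.

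**Figure D1:**
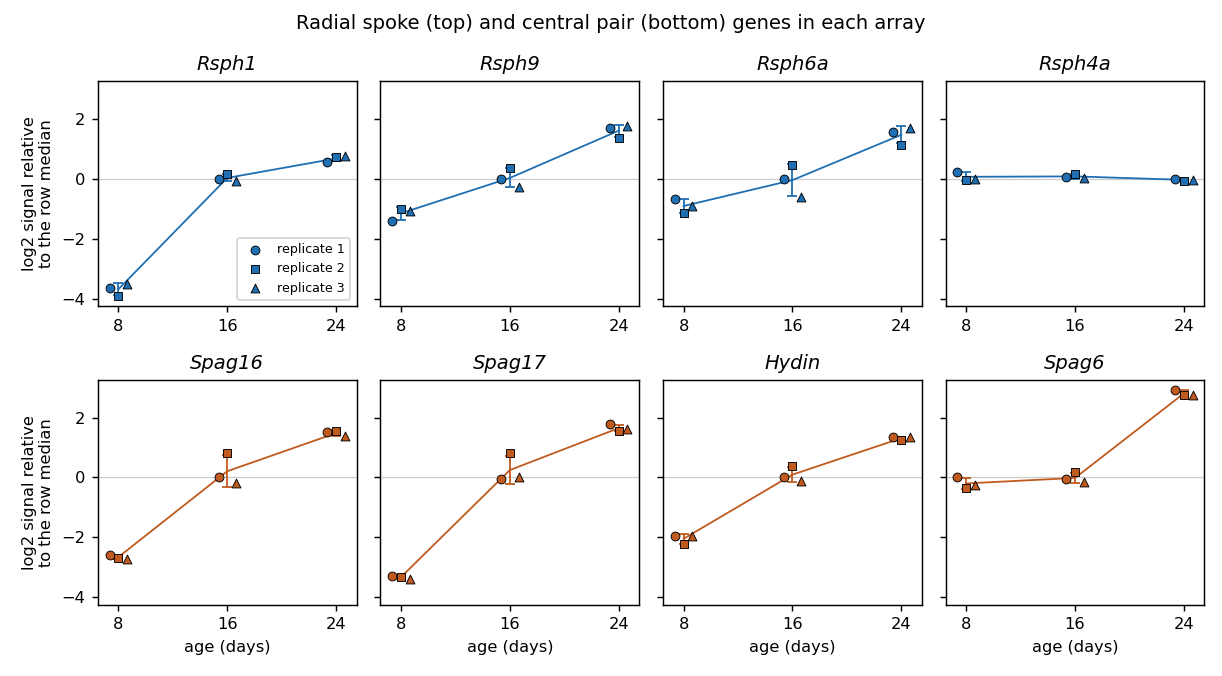
Log2 signal relative to the row median (vertical axis) at 8, 16 and 24 days (horizontal axis) for the 4 radial spoke genes in the top row and the 4 central pair genes in the bottom row. Symbols are single arrays, lines join the means and bars are SD (n = 3); Rsph1 climbs mainly by 16 days, Spag6 after it, and Rsph4a stays within -0.06 and 0.24.

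Rsph1 encodes a radial spoke head protein with MORN repeats. Its log2 values were -3.64, -3.91 and -3.52 in replicates 1, 2 and 3 of 8 days, 0.00, 0.15 and -0.07 at 16 days, and 0.57, 0.71 and 0.76 at 24 days. All 3 ages stood apart without overlap, and the arrays of an age lay close together. The rise from 8 to 16 days was 3.72 ± 0.12 on the log2 scale (limma's moderated standard error, 3 arrays per age), or 13.2-fold, with an adjusted p of 5.06e-08. This was the rise ranked 43 among all 19935 genes. From 16 to 24 days Rsph1 rose by only 0.65 ± 0.12, or 1.57-fold (limma adjusted p 0.00290). This second rise was 0.56 and not called on the 6 numbered arrays alone (limma adjusted p 0.0670, and 0.119 with a replicate block). By 16 days it had made 85.1% of its whole log2 rise of 4.37 ± 0.12, the highest share among the 8 genes.

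Rsph9 encodes another component of the spoke head. Its values were -1.40, -0.99 and -1.07 at 8 days, 0.00, 0.36 and -0.28 at 16 days and 1.68, 1.38 and 1.76 at 24 days, and no age overlapped another. It rose by 1.18 ± 0.17, or 2.27-fold, over the first interval (limma adjusted p 9.92e-04) and by 1.58 ± 0.17, or 2.99-fold, over the second (limma adjusted p 1.93e-04). The difference between the intervals, 0.40 ± 0.30, did not pass the test (limma adjusted p 0.576), and its 95% interval ran from -0.28 to 1.08.

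Rsph6a and Rsph4a are paralogous spoke head genes. Rsph6a is known as the form of the testis and the sperm tail, and Rsph4a as the form of airway and other motile cilia. The values of Rsph6a were -0.69, -1.13 and -0.91 at 8 days, 0.00, 0.46 and -0.60 at 16 days and 1.58, 1.14 and 1.68 at 24 days. At 16 days its arrays were spread over more than 1 log2 unit, and replicate 3 lay just above the highest array of 8 days. Rsph6a rose by 1.51 ± 0.25 between 16 and 24 days, or 2.85-fold (limma adjusted p 0.00189), and by 2.38 ± 0.25 over the whole span (adjusted p 2.53e-05). Its smaller rise of 0.87 ± 0.25 from 8 to 16 days had a limma adjusted p of 0.0282. That call was lost without replicate 2 or 3 of 8 days (adjusted p 0.1 and 0.0757) and without replicate 1 or 2 of 16 days (0.0763 and 0.0852). Over all 18 alternatives its adjusted p lay between 0.00389 and 0.1.

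Rsph4a showed no such course. Its values were 0.24, -0.04 and 0.00 at 8 days, 0.04, 0.17 and 0.02 at 16 days and -0.02, -0.06 and -0.03 at 24 days. All 9 arrays lay within a range narrower than the spread of Rsph6a at 16 days alone. The change was 0.01 ± 0.09 from 8 to 16 days (limma adjusted p 0.974) and -0.12 ± 0.09 from 16 to 24 days (limma adjusted p 0.333). The 95% intervals were -0.20 to 0.23 and -0.33 to 0.09. They leave room for a change of up to 1.17-fold upwards over the first interval and for a fall to 0.80-fold over the second. The arrays of 24 days lay below those of 16 days without overlap, as in one direction or the other did those of 55.6% of all genes. Because the values are centred, they do not show whether Rsph4a was expressed at a steady level or lay at the background of the array.

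Within each array, the value of Rsph6a minus that of Rsph4a averaged -0.98 ± 0.10 at 8 days, -0.12 ± 0.46 at 16 days and 1.51 ± 0.27 at 24 days (SD, n = 3). The difference between these genes therefore shifted by 0.85 over the first interval and by 1.63 over the second. In an exact two-sided permutation test of the array labels p was 0.1 for each shift, which is the smallest value that 3 against 3 arrays can give. Among the 4 such shifts tested for the pairs Rsph6a with Rsph4a and Spag6l with Spag6, the Benjamini-Hochberg adjusted p was likewise 0.1 in this permutation test.

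Spag16, the mouse counterpart of the algal gene PF20, encodes a protein of the bridge between the microtubules of the central pair. Its values were -2.59, -2.68 and -2.72 at 8 days, 0.00, 0.82 and -0.20 at 16 days and 1.52, 1.54 and 1.37 at 24 days. The arrays of 8 and of 24 days were tightly grouped, those of 16 days were spread, and no age overlapped another. Spag16 rose by 2.87 ± 0.21, or 7.31-fold, by 16 days (limma adjusted p 1.03e-05) and by a further 1.27 ± 0.21, or 2.42-fold, by 24 days (limma adjusted p 0.00218).

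Spag17, the counterpart of PF6, encodes a large protein of a central pair projection. It had the largest whole rise of the 8 genes. Its values were -3.29, -3.31 and -3.39 at 8 days, -0.06, 0.80 and 0.00 at 16 days and 1.77, 1.54 and 1.63 at 24 days, again without overlap between ages. The rise was 3.58 ± 0.20, or 11.9-fold, over the first interval (limma adjusted p 1.41e-06) and 1.40 ± 0.20, or 2.64-fold, over the second (limma adjusted p 7.94e-04). Over the whole span Spag17 rose 31.5-fold, with a 95% interval of 23.3 to 42.7-fold, and ranked 44 among all genes. Limma's standard errors and intervals given for the genes rest on a spread shared by all ages, including 16 days. With only the arrays of 8 and 24 days, the standard error of this whole rise was 0.096 log2 units, beside 0.196.

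Hydin encodes a very large central pair protein whose loss causes hydrocephalus in mice. Its values were -1.97, -2.23 and -1.95 at 8 days, 0.00, 0.38 and -0.11 at 16 days and 1.33, 1.25 and 1.35 at 24 days, and the ages did not overlap. It rose by 2.14 ± 0.13, or 4.42-fold, by 16 days (limma adjusted p 3.15e-06) and by 1.22 ± 0.13, or 2.33-fold, from 16 to 24 days (limma adjusted p 1.78e-04). At 16 days it had made 63.7% of its whole log2 rise, beside 69.2% for Spag16 and 71.8% for Spag17.

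Spag6 took another course than these central pair genes. The symbol needs care, since mice carry a pair of such genes. The row analysed as Spag6 has gene ID 381350, on chromosome 2, while Spag6l, gene ID 50525 on chromosome 16, is the counterpart of algal PF16 that was itself long called Spag6. The values of Spag6 were 0.00, -0.34 and -0.26 at 8 days, -0.06, 0.17 and -0.17 at 16 days and 2.92, 2.74 and 2.76 at 24 days. The arrays of 8 and 16 days overlapped, and all arrays of 24 days stood far above them. The change was 0.18 ± 0.12 by 16 days, which did not pass the test (limma adjusted p 0.355), with a 95% interval of -0.09 to 0.45. From 16 to 24 days Spag6 rose by 2.82 ± 0.12, or 7.08-fold (limma adjusted p 6.28e-07), the largest second rise of the 8 genes. Only 6.12% of its whole log2 rise lay in the first interval.

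Spag6l is not among the 8 genes, but its course differed from that of Spag6. Its values were -3.80, -4.04 and -4.06 at 8 days, 0.00, 0.65 and -0.31 at 16 days and 1.28, 1.13 and 1.29 at 24 days. It rose by 4.08 ± 0.20, or 16.9-fold, over the first interval (limma adjusted p 7.63e-07) and by 1.12 ± 0.20 over the second (limma adjusted p 0.00315). Within each array, Spag6l minus Spag6 averaged -3.77 ± 0.06 at 8 days, 0.13 ± 0.32 at 16 days and -1.57 ± 0.10 at 24 days (SD, n = 3). The difference moved up by 3.90 and then by -1.70, each with the smallest p of 0.1 in the exact two-sided permutation test. How far the probes of one gene also bind the RNA of the other was not tested.

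**Figure D2:**
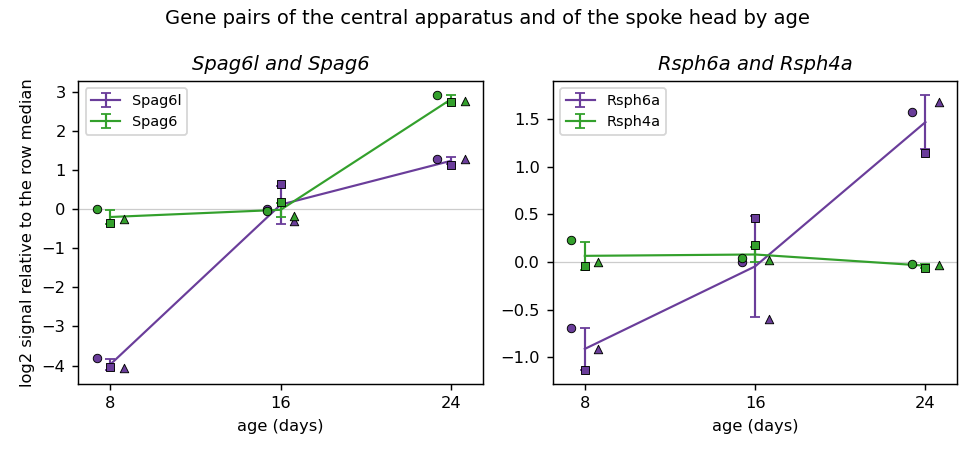
Log2 signal relative to the row median by age for Spag6l and Spag6 (left) and for Rsph6a and Rsph4a (right), with single arrays as symbols (circle, square and triangle for replicates 1, 2 and 3), lines through the means and SD bars (n = 3). Spag6l climbs from -3.97 to 0.11 by 16 days while Spag6 stays near 0 until 24 days, and Rsph4a stays flat while Rsph6a climbs.

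The start regions of Spag16, Hydin, Spag17 and Spag6l, central pair genes that rose by 16 days, are shown beside that of Spag6, which did not pass the test there. RFX factors, which drive many cilium genes, bind the X-box, a palindrome with the core GTTGC, and CREM, a regulator of spermatid genes, binds the cyclic AMP response element TGACGTCA. The sequences are from RefSeq on GRCm38.p6, the reference of another strain than the mice used, and each gives the 150 bases before the annotated start, 5′ to 3′ on the strand of the gene. Capitals mark matches that lie wholly in the window, on either strand, to GTTGC, to a loose X-box palindrome (14 bases with GT, C, G and AC at fixed places and any base elsewhere) or to TGACG, the core of the response element. The windows are chr1:69826820-69826969 on the plus strand for Spag16, chr8:110266827-110266976 on the plus strand for Hydin, chr3:99885267-99885416 on the plus strand for Spag17, chr16:16829364-16829513 on the minus strand for Spag6l and chr2:18698872-18699021 on the plus strand for Spag6.
Spag16: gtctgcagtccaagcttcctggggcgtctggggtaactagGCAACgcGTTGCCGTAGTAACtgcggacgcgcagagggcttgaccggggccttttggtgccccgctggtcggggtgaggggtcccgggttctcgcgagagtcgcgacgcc
Hydin: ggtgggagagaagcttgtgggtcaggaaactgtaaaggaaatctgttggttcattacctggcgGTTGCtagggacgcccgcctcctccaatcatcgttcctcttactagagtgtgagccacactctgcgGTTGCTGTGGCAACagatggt
Spag17: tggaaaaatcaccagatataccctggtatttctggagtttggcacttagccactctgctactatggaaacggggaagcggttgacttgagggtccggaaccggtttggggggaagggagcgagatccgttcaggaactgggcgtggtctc
Spag6l: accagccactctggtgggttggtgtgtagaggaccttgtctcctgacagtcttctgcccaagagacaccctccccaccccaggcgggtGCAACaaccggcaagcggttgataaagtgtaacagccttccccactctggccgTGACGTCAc
Spag6: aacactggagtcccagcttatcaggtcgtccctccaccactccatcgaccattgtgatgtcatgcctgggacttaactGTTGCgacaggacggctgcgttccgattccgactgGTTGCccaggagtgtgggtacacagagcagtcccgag

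The table held a start region of 300 bases, from 250 before to 50 after the start, for 6 of the 8 genes; Rsph1 and Rsph4a were not in it. The loose X-box was found in 3 of these 6, and in 7.17% of all 32851 start regions of that length. Spag16 holds it as GTTGCCGTAGTAAC from -103 to -90, Hydin as GTTGCTGTGGCAAC from -21 to -8 and Rsph9 as GTCTCCATGGAGAC from -6 to 8, where -1 is the last base before the start and 1 the first base after it. Spag6l holds it at 2 places, one of them GTTGCCCTGGAGAC from 35 to 48. The core GTTGC was found in 3 of the 6 (Spag6, Spag16 and Hydin) and in 35.2% of all start regions. The loose X-boxes of Spag16 and Hydin overlap matches to this core. The full response element was found in none of the 6, in Spag6l from -9 to -2 and in 1.79% of all start regions, and its core TGACG, part of the full element, in none of the 6 and in 20.8%. Spag17 and Rsph6a held none of these 4 motifs in the 300 bases read. Whether a motif bears on the course of a gene was not tested. The motifs were chosen with the sequences in view, and a match is a description of these letters.

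The contrast between the intervals was also tested directly, as the change from 16 to 24 days minus that from 8 to 16 days. Over all genes 5.38% were called in this test, 3.06% with a positive and 2.31% with a negative difference. Of the 8 genes 5 were called, 1 with a positive difference and 4 with a negative one. All 5 rose over the whole span, so that a negative difference is here a larger log2 rise before 16 days. For Rsph1 the difference was -3.07 ± 0.20 (limma adjusted p 3.34e-05), for Spag17 -2.17 ± 0.34 (adjusted p 0.00403) and for Spag6 2.64 ± 0.21 (adjusted p 8.64e-05).

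For Spag16 and Hydin the contrast was less firm. The difference for Spag16 was -1.60 ± 0.37, with a limma adjusted p of 0.0346. It was lost without any 1 array of 8 days or of 24 days and without replicate 1 of 16 days, with adjusted p up to 0.0819, and it was -0.99, still called, without the array of 16 days numbered 2. Hydin had a difference of -0.92 ± 0.23 and a limma adjusted p of 0.0492. This call was lost under 16 of the 17 alternatives tried, with adjusted p from 0.0398 to 0.189, and it held without replicate 3 of 16 days. For Rsph6a the difference was 0.65 ± 0.43 (limma adjusted p 0.524).

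**Figure D3:**
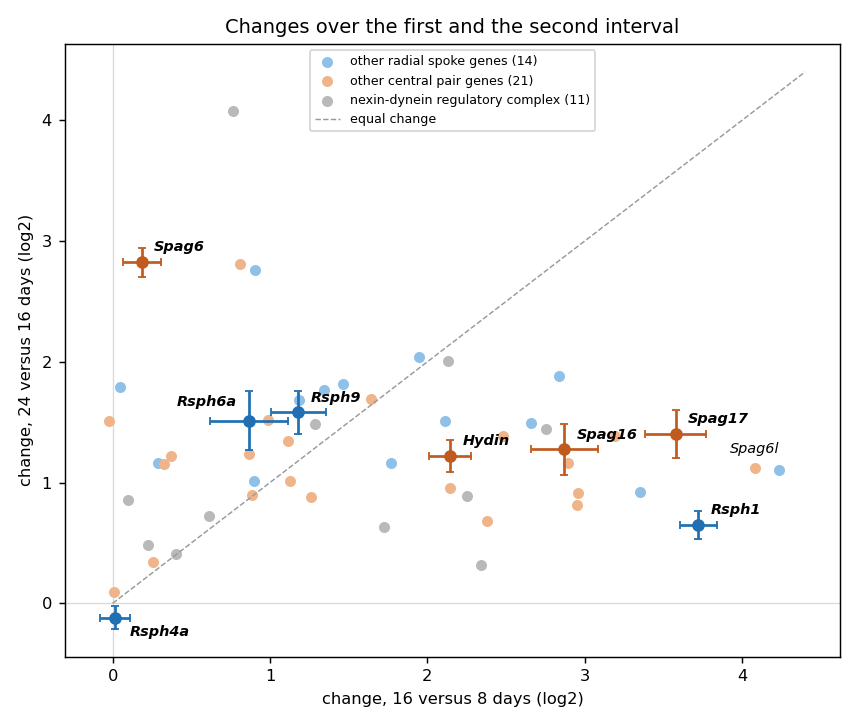
Log2 change from 8 to 16 days (horizontal axis) against that from 16 to 24 days (vertical axis) for the 8 genes, with limma's moderated standard errors as bars, and for other genes of the radial spokes, the central pair and the nexin-dynein regulatory complex. The dashed line marks equal changes over both intervals; Rsph1, Spag17, Spag16 and Hydin lie below it with larger rises over the first interval, Spag6 lies far above it at 0.18 and 2.82, and Rsph4a lies near the origin.

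Ordered by the first rise, the 8 genes ran from Rsph1 (3.72) through Spag17 (3.58), Spag16 (2.87), Hydin (2.14), Rsph9 (1.18), Rsph6a (0.87) and Spag6 (0.18) to Rsph4a (0.01). The 95% intervals of Rsph1 and Spag17, of Spag17 and Spag16, of Spag16 and Hydin, of Rsph9 and Rsph6a, of Rsph6a and Spag6, and of Spag6 and Rsph4a overlapped. Those of Hydin (1.84 to 2.44) and Rsph9 (0.79 to 1.57) did not. Over the second interval Spag6 led with 2.82 and an interval of 2.56 to 3.09, above those of the other 7 genes. Rsph9, Rsph6a, Spag17, Spag16 and Hydin followed between 1.58 and 1.22 with overlapping intervals, then Rsph1 at 0.65 and Rsph4a at -0.12. The interval of Rsph1 (0.39 to 0.91) overlapped that of Spag16 (0.80 to 1.75). Of these differences between genes, that of Rsph6a and Rsph4a alone was tested, by the exact permutation test of that pair. The 8 genes were read on the same arrays, and separate intervals leave out this pairing. Overlap of 2 intervals therefore does not show that the changes of 2 genes were alike.

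At 16 days the arrays took nearly the same order for all 8 genes. Replicate 2 was the highest array of that age for 8 of 8 genes, and replicate 3 the lowest for 7 of 8. Over all genes replicate 2 was highest in 50.9% and replicate 3 lowest in 49.2%. The same array was also high in the mean of 8 genes listed as pachytene spermatocyte markers, at 0.41 against 0.04 and 0.07 in replicates 1 and 3. It was low in the mean of 8 spermatogonia markers, at -0.37 against 0.02 and 0.15. The 8 Sertoli cell markers averaged -0.23 in it, against 0.03 and 0.11. The median of 1015 olfactory receptor genes, which are not known as tail genes, was 0.17 in it, against 0.03 and 0.00. The part of these differences in the results was not tested. Without replicate 2 of 16 days, Spag17 rose by 3.30 and then by 1.68, Spag16 by 2.57 and then by 1.58, and Rsph1 by 3.66 and then by 0.71, all still called.

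Most other known genes of these structures also rose. Of 14 further radial spoke genes, 12 rose by 16 days and 14 rose between 16 and 24 days, with median changes of 1.62 and 1.60. Cfap206, a protein at the base of a spoke, rose by 4.23 ± 0.16 over the first interval (limma adjusted p 1.27e-07), Ropn1l, a spoke protein that binds kinase anchors, by 3.35 ± 0.16 and Iqub by 2.84 ± 0.19. Over the second interval Dydc1 rose by 2.76 ± 0.27, the spoke chaperone Dnajb13 by 2.04 ± 0.17 and Iqub by 1.88 ± 0.19. The changes of Rsph14 and Morn3 by 16 days, 0.29 ± 0.21 and 0.05 ± 0.20, did not pass the test. No gene of this list or of the further central pair genes fell in any comparison between ages. Rsph3a, Rsph3b and Rsph10b were not analysed here.

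Of 21 further central pair genes, 16 rose by 16 days and 20 between 16 and 24 days, with median changes of 1.13 and 1.15. Besides Spag6l, Cfap69 rose by 3.19 ± 0.15 over the first interval (limma adjusted p 5.36e-07) and Wdr93 by 2.96 ± 0.14. Over the second interval Ppp1r32 rose by 2.81 ± 0.13, Spef2, a central pair protein needed for tail formation, by 1.69 ± 0.17 and Ccdc189, now named Cfap119, by 1.52 ± 0.17. Mycbp, which binds the MYC protein and is present in many tissues, changed by 0.01 ± 0.09 and 0.09 ± 0.09 and did not pass the test in any comparison.

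The nexin-dynein regulatory complex links neighbouring doublets and sits beside the spokes. Of its 11 genes 9 rose by 16 days and 10 between 16 and 24 days. Ccdc65 rose by 2.75 ± 0.14, Efcab2 by 2.34 ± 0.17 and Iqcg by 2.25 ± 0.10 over the first interval. Fbxl13 rose by 4.08 ± 0.15 over the second (limma adjusted p 4.33e-07), Tcte1 by 2.01 ± 0.29 and Drc7 by 1.49 ± 0.15. All 11 had risen over the whole span, with a median of 2.65 beside 3.18 for the 8 genes and -0.18 over all genes.

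Among 14 regulators known from cilia or from germ cells, 6 rose by 16 days and none fell. Sox30 rose by 2.33 ± 0.10, the testis regulator Mybl1 by 2.18 ± 0.23 and Rfx4 by 2.14 ± 0.12. Rfx2, an X-box factor needed in spermatids, rose by 1.90 ± 0.13 (limma adjusted p 6.60e-06). The other listed RFX genes, Rfx1 and Rfx3, changed by -0.22 ± 0.15 and -0.04 ± 0.11 by 16 days. Neither passed the test in any comparison between ages. From 16 to 24 days 6 of the 14 rose, led by Crem at 1.13 ± 0.20. Foxn4 fell over that interval, with a change of -0.28 ± 0.09 (limma adjusted p 0.0429). Its change over the whole span, -0.28 ± 0.09, was also called (limma adjusted p 0.0263). Foxj1, the master regulator of motile cilia, changed by -0.08 ± 0.15 by 16 days (limma adjusted p 0.855) and rose by 0.58 ± 0.15 from 16 to 24 days (limma adjusted p 0.0142). Mcidas, Gmnc, Ccno and Trp73, which drive the multiciliated cells of airway and ducts, did not pass the test in any of the 3 comparisons between ages. Rfx1, Rfx2, Rfx3, Foxj1, Mcidas, Gmnc, Ccno and Trp73 include genes named here after their values were seen.

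**Figure D4:**
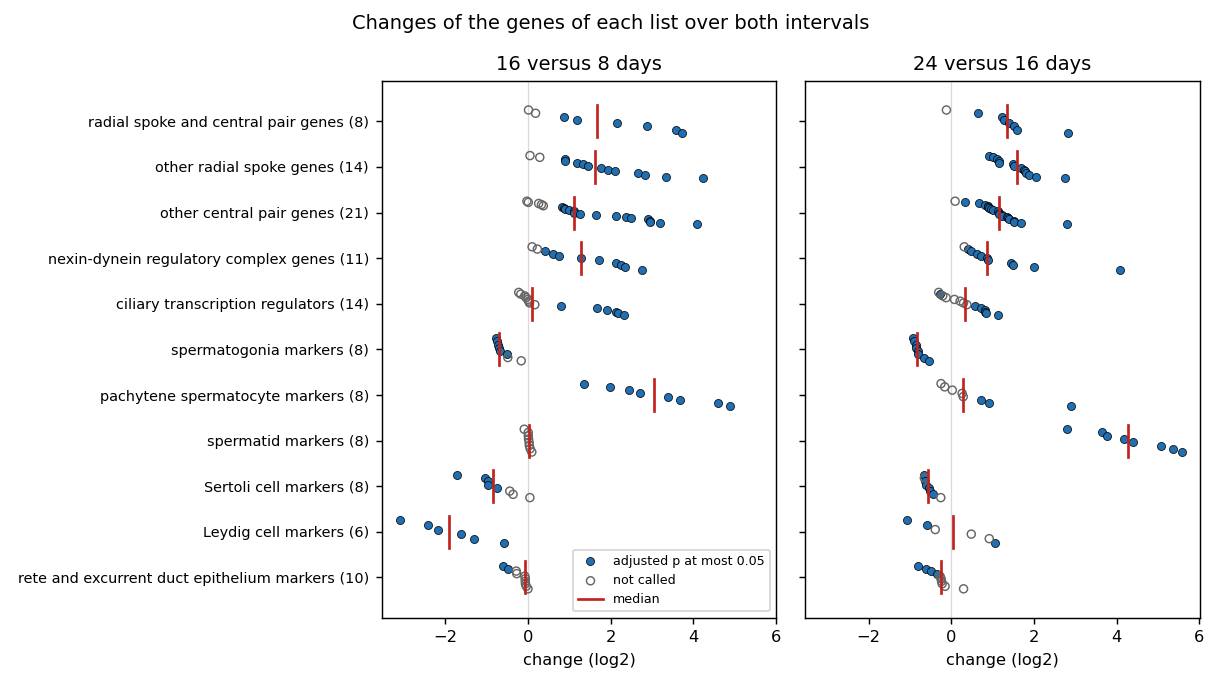
Log2 change (horizontal axis, same scale in both panels) from 8 to 16 days (left) and from 16 to 24 days (right) for each gene of the lists named on the vertical axis, with the number of measured genes in brackets. Filled points passed limma's adjusted p of 0.05, open points did not, and red bars are medians; 6 of the 8 genes in the top row are filled at left and 7 at right, while the 8 spermatid markers are open at left and filled at right.

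Markers of the cell types that the tissue could hold moved over the same intervals. Of 8 pachytene spermatocyte markers, 8 rose by 16 days, with a median of 3.05, and 3 rose from 16 to 24 days. Their mean lay between -3.10 and -2.82 in the arrays of 8 days, between 0.04 and 0.41 at 16 days and between 0.70 and 0.85 at 24 days. How far these 8 genes report pachytene cells, and not earlier or later germ cells, was not tested. Of 8 spermatid markers, none passed the test by 16 days and 8 rose by 24 days, with a median of 4.29, and their mean lay between -0.30 and 0.00 at 16 days and between 3.60 and 4.75 at 24 days. None of 10 markers of rete and excurrent duct epithelium, which holds the ciliated cells nearest to the testis, was called as rising in any comparison. Of these 10, 2 fell by 16 days, 4 from 16 to 24 days and 6 over the whole span. Over all genes 10.4%, 13.2% and 19.2% rose and 14.3%, 20.1% and 35.2% fell in these comparisons. These counts are without scaling to each array's median. From 16 to 24 days the older arrays lay wholly above the younger for 1 of the 10 and wholly below for 7. Over all genes they lay wholly above for 16.5%, and apart in either direction for 55.6%. The mean of the 10 markers lay between 0.16 and 0.29 in the arrays of 8 days, between -0.02 and 0.08 at 16 days and between -0.29 and -0.25 at 24 days. How far these markers report duct epithelium or its ciliated cells was not tested. Spermatogonia, Sertoli and Leydig markers that passed the test by 16 days fell, 6 of 8, 5 of 8 and 6 of 6. From 16 to 24 days 8 of 8 spermatogonia and 6 of 8 Sertoli markers fell, while of 6 Leydig markers 1 rose and 2 fell. Defining markers cannot be shown at or near 0 with centred values, and the part of cell composition in the changes of the 8 genes was not tested.

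The genes whose changes over both intervals were nearest to those of each of the 8 were found by Euclidean distance between the pairs of changes. With Rsph1 these were Hsf5, Poteg and Smim24, at distances of 0.10 to 0.14 log2 units, and only 9 genes lay within 0.25. Spag17 had Tdrd6, Rbakdn and Odf4 nearest, and 14 genes within 0.25. Dnah17, an outer arm dynein chain, Bbof1 and Tsnaxip1 were nearest to Spag16, and Tcte2, 1700010B08Rik and Slc9b1 to Hydin. Rsph9 had Mesp1, Cfap53 and Maats1, now named Cfap91 and itself a spoke protein, and Rsph6a had Gm13570, Pkdrej and Hspb9.

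Spag6 had Tssk1, a serine kinase of spermatids, Tex38 and Lelp1 as its nearest genes, at distances of 0.02 to 0.05, and 44 genes within 0.25. Over the 9 arrays the Pearson correlation with the nearest gene was 0.994 for Spag6 with Tssk1, 0.994 for Spag16 with Dnah17 and 0.996 for Rsph1 with Hsf5. These correlations describe arrays that share their ages, and no test is attached to them. The nearest genes were picked by their changes in these same arrays, so that high correlations follow from the choice. Rsph4a had 8533 genes within 0.25 of it, so that its nearest ones, Eif4e1b, Cxcl15 and Tcl1b2, are 3 of many that hardly moved.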

How the data were processed

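Affymetrix arrays of mouse testis were used, 3 per age, labelled by the whole-transcript sense-target protocol per the labels. The deposited values are log2 signals of 28815 rows, relative to each row's median; with the 38964 blank cells taken as 0, the median of 28815 rows was 0. How the authors corrected, normalized and centred the signals is not stated in the labels. The number of arrays limits the precision. Rows with 1 gene symbol (21780) were averaged per gene, blanks as 0, giving 19935 genes; 1605 rows with several symbols and 5430 with none stayed out. Gene IDs of 19853 genes matched RefSeq (GRCm38.p6), used for names and chromosomes. The fit per gene used limma 3.58.1 under R 4.3.3 (a mean per age, 9 arrays, 6 residual and 3.82 prior degrees of freedom, two-sided tests, Benjamini-Hochberg adjustment over all genes, threshold 0.05). Exact permutation tests used scipy 1.17.1. In a simulated comparison of 16 with 8 days over 19935 genes, log2 changes of 0.5, 1 and 2 were recovered in 42%, 82% and 92% of genes, and 12 calls were made among 19735 genes left unchanged. The simulated noise was independent between genes and held no shift of a whole array. These rates therefore need not hold for the real arrays. The members, the 10 lists (108 of 114 genes measured) and the tests were chosen with earlier results of these data known. Named are the 8 genes, from each of the lists of tail genes and regulators up to 3 called genes with the largest rise or fall per interval, and the 3 nearest genes of each of the 8; marker lists are given by their counts. Genes printed beyond this rule were chosen after their values were seen. The alternatives were scaling to each array's median, blanks left missing, single rows, array weights, only the ages compared, robust eBayes, leaving out 1 or 2 arrays, and a replicate block; the block's 6 arrays without the block were added after seeing the data.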

Additional observations from a re-analysis of the deposited data

How the results depend on the processing

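Of 32 results, the 8 genes in 3 comparisons and in the contrast of the intervals, 28 kept their direction or stayed uncalled, and their side of the threshold, under all alternatives; the other 4 lost their call in 34 settings. These were the first rise of Rsph6a (7 of 18 alternatives, adjusted p up to 0.1), the second rise of Rsph1 (2 of 18, both on the 6 numbered arrays, 0.56 with limma adjusted p 0.119 with the block and 0.0670 without it) and the contrasts of Spag16 (9 of 17) and Hydin (16 of 17). With 1 array left out the contrast of the intervals was called for 3 to 5 of the 8 genes, and counts over all genes were 3741 to 5081 for 16 versus 8 days, beside 4914 with all arrays, and 3669 (without replicate 1 of 16 days) to 8070 for 24 versus 16 days, beside 6645. No label says that replicate numbers pair the samples, and the deviations of same-numbered arrays correlated between -0.461 and 0.197. With the replicate block 1971 genes were called for 16 versus 8 days, 1294 for 24 versus 16 days and 3 of the 8 in the contrast; on the same 6 arrays without the block these were 2485, 1576 and 3. Fewer arrays enter these fits. Without replicate 1 of 8 days and replicate 2 of 16 days 8698 genes were called for 24 versus 16 days. With arrays scaled to their medians, 6, 7 and 7 of the 8 genes were called. Leaving blanks missing takes the middle array from each of the 8 genes, and it is no check independent of leaving out 1 array. For Rsph6a the first change was 0.84 both with blanks missing and without replicate 1 of 16 days. The estimate of array weights stopped before full convergence. Without counts or levels, neither depth nor signal over background can be given.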
